A study of Mus musculus with 3 samples.

Results

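Genes of MHC class I peptide supply and assembly were followed through 3 sorted myeloid populations of mice with experimental autoimmune encephalomyelitis (EAE), an induced model of multiple sclerosis. The genes under study were chosen by name, for their place in the pathway, and are 10 of the 22238 genes listed in all 3 libraries: the light chain gene B2m, the transporter genes Tap1 and Tap2, the tapasin gene Tapbp, the immunoproteasome genes Psmb8, Psmb9 and Psmb10, the proteasome activator genes Psme1 and Psme2, and the transactivator gene Nlrc5. Female wild-type mice on the C57BL/6J background, 10 to 12 weeks old, received a myelin oligodendrocyte glycoprotein (MOG) peptide in complete Freund's adjuvant and 250 ng of pertussis toxin at 2 and 24 h. Cells were sorted on days 14 to 15. The bone marrow (BM) monocytes were CD45+ CD11b+ Ly6Chi Ly6G- CD11c- and pooled from 13 mice in 2 experiments. Spinal cord (SC) monocytes were CD45+ CD11b+ CD64+ Ly6Chi Ly6G-, and SC APCs, the antigen-presenting cells taken to derive from monocytes, were CD45+ CD11b+ CD64+ Ly6Clow/- Ly6G-, each pooled from 18 mice in 3 experiments. One label of the SC APC sample names bone marrow as its source, whereas its title, its tissue label and the design name the spinal cord. All 3 groups carried EAE and no group of healthy mice was analysed here, and CD64 was part of the spinal cord gates but not of the bone marrow gate.

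Nearly every nucleated cell can show fragments of its own proteins on MHC class I molecules to CD8+ T cells. Proteasomes cut the proteins, the TAP transporter carries the fragments into the endoplasmic reticulum, and tapasin holds an empty heavy chain paired with beta-2 microglobulin at the transporter until a fitting peptide binds. Interferon gamma is known to exchange the constitutive catalytic subunits of the proteasome for inducible ones, and NLRC5 is known as a transactivator of class I genes, the counterpart of CIITA for class II.

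Each group was 1 library, so the groups could not be tested against each other and p-values are absent. A gene was called higher or lower when the 98% interval of its log2 fold change, which covers counting error only, lay wholly beyond 2-fold and its level exceeded 3 TPM, a length-corrected share of all transcripts, in at least 1 of the libraries compared. Reads amplified by PCR are not independent molecules, and these intervals do not cover the spread between animals. Levels are given as TPM rescaled over the common genes, and different genes are set side by side on these levels. Ratios of reads between genes, which are not corrected for length, are given beside some of the TPM ratios. Fold changes are on the reads after median-of-ratios scaling. A second value on reads per effective length is given where it changes a call or a direction and beside some other values. The SC APC library was quantified on fewer genes (22242 against 54432), and the effective lengths of some genes differed between libraries. Some also differed between the monocyte libraries, by a log2 ratio of -0.70 for the peptidase gene Npepps, and the cause was not tested. In RNA from sorted pools, fewer cells of a type and less RNA per cell cannot be told apart.

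The libraries held 27283795 to 33280643 assigned reads. Itgam, which encodes CD11b, stood between 485 and 533 TPM in all 3 populations, and Ly6c2 at 5205, 3602 and 1067 TPM in BM monocytes, SC monocytes and SC APCs. They belong to a list of 6 markers of the sorted monocyte lineage, which summed to 8197, 5649 and 3182 TPM in that order. Against BM monocytes, 2 of the 6 were called higher and 1 lower in SC monocytes, where 13.8% and 10.7% of all genes were. In SC APCs 2 were called higher and 2 lower, where 14.0% and 11.8% of all genes were. Between SC monocytes and SC APCs 0 were called higher and 2 lower in SC APCs, where 1.93% and 1.70% of all genes were. Per effective length 1 was called lower there, where 3.29% of all genes were. Markers of other cells were not alike across the libraries. The summed level of 9 T cell markers was 0.883, 49.4 and 74.5 TPM in that order, with Cd3g, Cd4 and Cd8b1 at 0 reads in BM monocytes. Those of 6 microglia markers summed to 12.8, 86.7 and 226 TPM, with Sall1 and Slc2a5 at 0 reads in BM monocytes, and 5 endothelial markers to 11.3, 49.9 and 31.3 TPM, with Cldn5 at 0 reads there. NK cell markers (5 genes) summed to 0.132, 3.72 and 7.70 TPM, B cell markers (5) to 8.69, 3.52 and 3.79, neutrophil markers (6) to 502, 54.4 and 235, and conventional dendritic cell markers (5) to 40.8, 20.8 and 25.0. Of the 40.8 TPM of dendritic cell markers in BM monocytes, 37.8 came from 1 gene. In SC against BM monocytes 2 of the 3 dendritic cell markers tested were called higher and 1 lower. Of 5 neutrophil markers tested there, 1 was called higher and 4 lower. The part of these other cells in the values below was not tested.

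RefSeq promoter windows of the GRCm38.p6 build, from 250 bases before to 50 bases after a transcription start, were at hand for 8 of the 10 genes, all but Tap2 and Nlrc5. They were searched on both strands for the interferon-stimulated response element (ISRE, GAAANNGAAA), the gamma-activated site (GAS, TTCNNNGAA), the CCAAT box and the kappa B motif, of which the ISRE and GAS are known from interferon responses and the kappa B motif from NF-kappa B. The B2m window held 3 of these motifs, more than that of any other member. Its stretch from 150 to 2 bases before the start is shown because the light chain gene had the highest level of the 10. Capitals mark, in this order, the ISRE, the reversed kappa B match and the reversed CCAAT box. The stretch lies at chr2:122147537-122147685 on the plus strand, upstream of the first B2m exon and within an intron of Patl2 on the other strand.
B2m: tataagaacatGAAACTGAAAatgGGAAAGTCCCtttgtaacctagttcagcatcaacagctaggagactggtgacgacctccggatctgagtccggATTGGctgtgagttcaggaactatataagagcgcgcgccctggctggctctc

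Tap1 and Psmb9 are transcribed away from each other from starts 226 bases apart, and the same CCAAT box lies in both windows, 8 bases before the Psmb9 start. It is shown on the Psmb9 strand, where it is reversed. With it are the ISRE of Psme1, reversed and from 10 bases after the start, and the GAS match of Psmb8, from 97 bases before. Each line is 30 bases on the strand of its gene, with the motif in capitals, at chr17:34187321-34187350 (minus strand), chr14:55578493-55578522 (plus) and chr17:34198088-34198117 (plus). All lie within an annotated 5′ exon of the gene named.
Psmb9: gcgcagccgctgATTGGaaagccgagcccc
Psme1: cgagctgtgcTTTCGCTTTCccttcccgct
Psmb8: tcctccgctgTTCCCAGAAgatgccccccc

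The Tapbp window held 2 CCAAT boxes, and those of Psmb10 and Psme2 none of the 4 motifs. Of 32851 RefSeq windows of this length, 3.44% held the ISRE, 8.30% the GAS, 37.4% the CCAAT box and 4.51% the kappa B motif. A match is a run of letters and not a measured binding site.

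**Figure D1:**
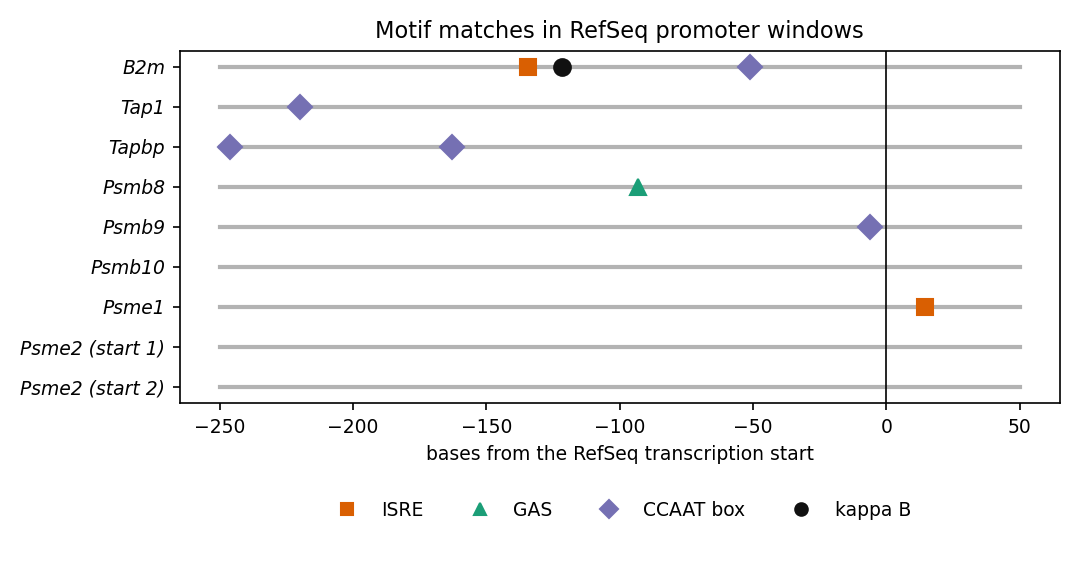
Positions of motif matches in the promoter windows of 8 members, with bases from the RefSeq start on the x axis and the start as a vertical line; Psme2 has 2 annotated starts. B2m is the window with 3 motifs, the ISRE and the kappa B match lying next to each other.

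Most of the 10 genes were higher in spinal cord than in bone marrow monocytes. The log2 fold change was above 0 for all 10 genes, and 9 of 10 were called higher where 13.8% of the 10072 genes tested were. The exception, Psmb10, had a value of 0.80. The median of the members was 1.49, a 2.81-fold difference, against -0.15 over all genes tested. None was called lower, against 10.7% of genes. Nlrc5 had the largest difference of the 10, 5.59-fold, and B2m the next, 3.80-fold. On reads per effective length 7 of 10 were called higher and none lower, where 14.0% and 11.2% of all genes were; Psmb8 and Psmb9 were no longer called. Scaling by total reads ended the calls of Psmb8 (0.88), Psmb9 (0.93) and Psme1 (1.01). If replicate libraries had varied with an assumed coefficient of variation of 0.2, Nlrc5 alone would have been called, and with 0.4 none.

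From SC monocytes to SC APCs the members did not move as a block. Log2 fold changes were below 0 for 8 of them and above 0 for 2, B2m and Psme1, with a median of -0.41 against -0.04 over all genes tested. None of the 10 was called in either direction, where 1.93% of 9734 genes were called higher and 1.70% lower. Per effective length the transactivator gene Nlrc5 was called lower, where 3.29% of genes were. This comparison and the former share the SC monocyte library and are not independent.

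Set directly against BM monocytes, SC APCs had 6 of the 10 genes called higher, where 14.0% of 10190 genes were. These were B2m, Tap1, Tap2, Tapbp, Psme1 and Nlrc5. Psmb8, Psmb9, Psmb10 and Psme2 were not called, with log2 fold changes of 0.79, 0.57, 0.14 and 0.77. The call of Tap1 was lost with scaling by total reads (0.93) and on TPM (0.85), and those of Tap2 (0.87) and Nlrc5 (0.79) were lost on TPM. With an assumed coefficient of variation of 0.2 only B2m would have been called. The median of the members was 1.22 against -0.17 over all genes.

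**Figure D2:**
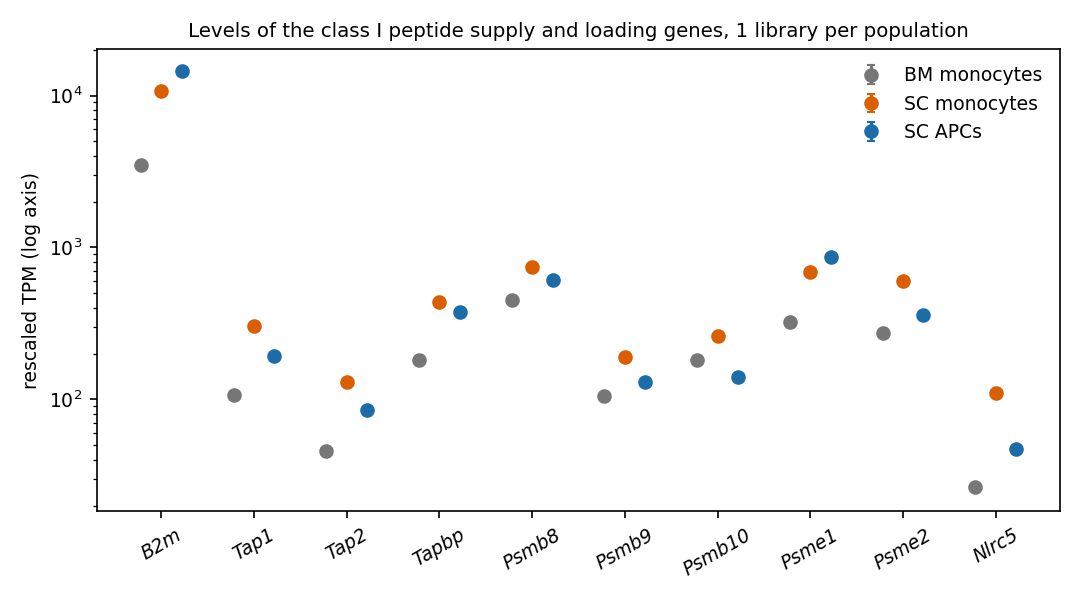
Rescaled TPM on a log axis for the 10 genes in BM monocytes, SC monocytes and SC APCs; each point is 1 library and its bar, mostly hidden by the point, the 95% counting interval. All genes are lowest in BM monocytes except Psmb10, which is lowest in SC APCs, and B2m and Psme1 are the genes highest in SC APCs.

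The immunoproteasome genes Psmb8, Psmb9 and Psmb10 encode the inducible catalytic subunits LMP7, LMP2 and MECL-1. Psmb8 (ENSMUSG00000024338.15, chromosome 17, 34197721 to 34201454 on GRCm38) stood at 448 TPM in BM monocytes, 746 in SC monocytes and 615 in SC APCs, from 6904, 10322 and 9525 reads. It had the highest level of the 3 subunits in every library. On the log2 scale SC monocytes exceeded BM monocytes in Psmb8 reads by 1.06, with 98% bounds of 1.01 and 1.11, and SC APCs differed from SC monocytes by -0.27 (-0.32 to -0.22). The first value was called on reads only by a narrow margin, and per effective length it was 0.98.

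Psmb9 (ENSMUSG00000096727.3, chromosome 17, 34181987 to 34187764, minus strand) was listed at 106, 189 and 131 TPM, from 2118, 3276 and 2517 reads. It was highest in SC monocytes, with log2 fold changes of 1.11 (1.02 to 1.20) and -0.54 (-0.63 to -0.45). The annotated spans of Psmb9 and Tap1 overlap on opposite strands, and the counting is not stated to use strand. Psmb10 (ENSMUSG00000031897.9, chromosome 8, 105935735 to 105938444, minus strand) stood at 182, 262 and 139 TPM, from 3497, 4367 and 3081 reads. Its log2 fold change was 0.80 (0.73 to 0.88) in the first comparison and -0.66 (-0.74 to -0.58) in the second, the latter -0.83 per effective length. Between SC APCs and BM monocytes it was 0.14 on reads, -0.06 per effective length and -0.38 on TPM, so its direction there depended on the scale. The effective length of Psmb10 was 859 bases in SC monocytes and 1061 in SC APCs.

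Each inducible subunit takes the place of a constitutive one, Psmb8 that of Psmb5, Psmb9 of Psmb6 and Psmb10 of Psmb7. The TPM ratio of Psmb8 to Psmb5 was 2.57 (95% counting interval 2.45 to 2.69) in BM monocytes, 6.37 (6.02 to 6.73) in SC monocytes and 8.15 (7.64 to 8.69) in SC APCs, so Psmb8 made up 72.0%, 86.4% and 89.1% of the pair. This ratio was ordered differently from the level of Psmb8 itself. Psmb5 stood at 174, 117 and 75.5 TPM, lower in each population than in the one before, although its own log2 fold changes of -0.28 and -0.61 were not called.

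The other pairs had their highest ratio in SC monocytes. Psmb9 to Psmb6 was 0.507 (0.478 to 0.537), 0.752 (0.714 to 0.792) and 0.498 (0.473 to 0.525), and the intervals of BM monocytes and SC APCs overlapped. Psmb10 to Psmb7 was 0.919 (0.878 to 0.962), 1.53 (1.46 to 1.60) and 0.964 (0.916 to 1.02), again with overlapping intervals outside SC monocytes. On plain read ratios the order of the populations was the same for Psmb8 to Psmb5, and Psmb10 to Psmb7 was 0.918, 1.49 and 1.12. Of these 3 pairs, Psmb8 to Psmb5 was the one with a higher ratio in SC APCs than in SC monocytes.

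**Figure D3:**
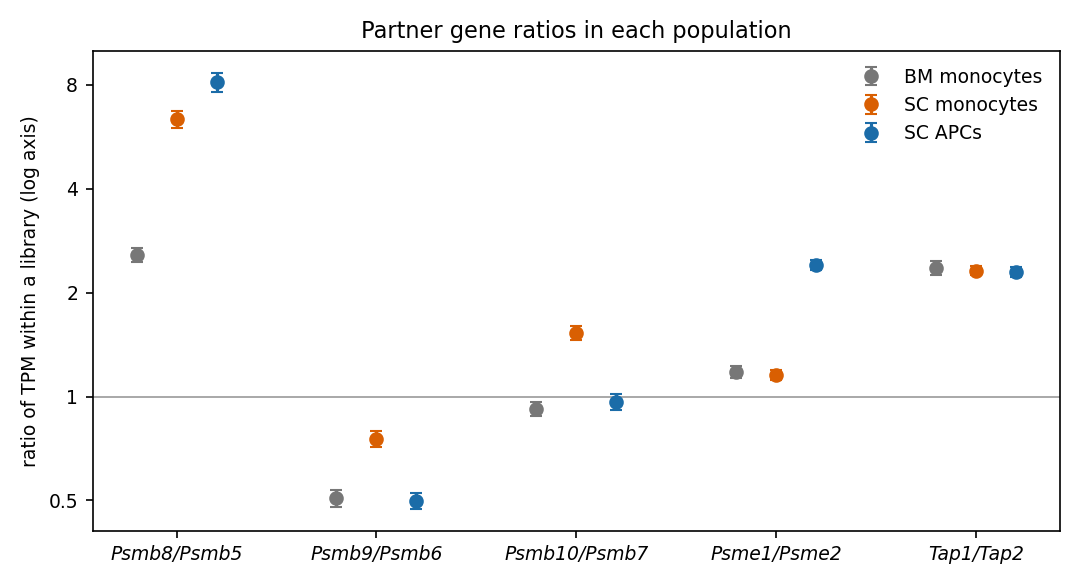
Ratios of the rescaled TPM of partner genes within each library, on a log axis with 95% counting intervals. Psmb8 to Psmb5 climbs from 2.57 to 8.15, Psmb9 to Psmb6 and Psmb10 to Psmb7 peak in SC monocytes, Psme1 to Psme2 stands apart in SC APCs at 2.41, and Tap1 to Tap2 stays near 2.3.

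The rest of the 20S core gave the background for these subunits. None of its 14 constitutive genes was called in any of the 3 comparisons. Of all genes tested, 13.8% were called higher and 10.7% lower in the first comparison. Between SC APCs and BM monocytes these shares were 14.0% and 11.8%. In the second comparison they were only 1.93% and 1.70%, so the lack of calls says little there. The median of the 14 genes was 0.05 in the first comparison and -0.23 in the second, with values from -0.52 (Psma7) to 0.57 (Psmb6) and from -1.02 (Psmb4) to 0.27 (Psmb2). Their summed level was 3375, 2702 and 2265 TPM. Core assembly factors and other caps (8 genes, among them Pomp, Psme3 and Psme4) had no call either, with medians of -0.16 and -0.16. Pomp, the assembly chaperone of new 20S cores, had values of 0.25 and -0.33.

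Psme1 and Psme2 encode PA28 alpha and beta, which form together the interferon-inducible cap of the 20S core. Psme1 (ENSMUSG00000022216.17, chromosome 14, 55578123 to 55581529) stood at 322, 689.8 and 867 TPM, from 5099, 8336 and 10903 reads. Psme2 (ENSMUSG00000079197.10, chromosome 14, 55587441 to 55591113, minus strand) stood at 274, 598 and 360.4 TPM, from 3895, 7522 and 5318 reads. The partners were thus close in both monocyte populations and apart in SC APCs. Psme1 had log2 fold changes of 1.19 (1.13 to 1.25) and 0.23 (0.18 to 0.28), or 1.34 and 0.41 per effective length, and Psme2 of 1.43 (1.37 to 1.50) and -0.66 (-0.72 to -0.60).

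The TPM ratio of Psme1 to Psme2 was 1.18 (1.13 to 1.23) in BM monocytes, 1.15 (1.12 to 1.19) in SC monocytes and 2.41 (2.33 to 2.49) in SC APCs. The same held on reads, at 1.31, 1.11 and 2.05. Psme2b is a near copy of Psme2 that can share its reads, and it was listed at 662, 282 and 222 reads. With both copies summed the TPM ratio was 0.985, 1.11 and 2.29. Against Psme3, which encodes the PA28 gamma cap of the nucleus, Psme1 had a TPM ratio of 4.09, 13.4 and 14.1, while Psme3 itself was not called (-0.32 and 0.22).

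Tap1 and Tap2 together encode the peptide transporter. Tap1 (ENSMUSG00000037321.17, chromosome 17, 34187553 to 34197225) stood at 108, 302 and 194 TPM, from 5346, 12056 and 8942 reads. Tap2 (ENSMUSG00000024339.12, chromosome 17, 34203527 to 34216321) stood at 45.7, 130.3 and 84.5 TPM, from 2497, 6159 and 5626 reads. Both were lowest in BM monocytes and highest in SC monocytes. Their TPM ratio hardly moved, at 2.35 (2.25 to 2.47), 2.32 (2.25 to 2.39) and 2.30 (2.22 to 2.37), with overlapping intervals.

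Tap1 rose by a log2 fold change of 1.66 (1.60 to 1.71) in SC monocytes over BM monocytes and Tap2 by 1.78 (1.70 to 1.86). From SC monocytes to SC APCs the values were -0.59 (-0.63 to -0.54) for Tap1 and -0.29 (-0.35 to -0.23) for Tap2, neither called. Per effective length they were alike at -0.56 and -0.54, since the effective length of Tap2 was 2438 bases in SC monocytes and 3192 in SC APCs. The steady ratio therefore holds on TPM, and on reads it was 2.14, 1.96 and 1.59.

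Tapbp encodes tapasin, the bridge between the transporter and the empty heavy chain. Tapbp (ENSMUSG00000024308.15, chromosome 17, 33915899 to 33929292) stood at 181, 437 and 377 TPM, from 9042, 18997 and 18578 reads, and had log2 fold changes of 1.55 (1.51 to 1.60) and -0.19 (-0.22 to -0.15). It was the member with the smallest difference between the spinal cord populations. Its span overlaps Zbtb22 on the same strand, which was listed at 1088, 688 and 714 reads. Tapbpl, which encodes the tapasin-related peptide editor TAPBPR, was also called higher in the first comparison (1.27). Calr, Canx and Pdia3, the chaperones of the loading complex that also serve other glycoproteins, were not called there, with values of 0.58, -0.63 and -0.14, nor was the peptide trimmer Erap1 (0.32, or 0.61 per effective length). In the second comparison none of these 5 genes was called and 4 lay above 0, Calr highest at 0.59.

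B2m encodes beta-2 microglobulin, the light chain of every class I molecule. B2m (ENSMUSG00000060802.8, chromosome 2, 122147686 to 122153083) stood at 3478, 10747 and 14609 TPM, from 44784, 121948 and 186043 reads. It was the gene with rank 21, 5 and 6 in level among all common genes of the 3 libraries, and it took 1.46% of all TPM in SC APCs. Its log2 fold change was 1.93 (1.91 to 1.95) in the first comparison and 0.45 (0.44 to 0.47) in the second, the highest value of the 10 there though not called. Between SC APCs and BM monocytes it was 2.38 (2.36 to 2.40), a 5.21-fold difference. The summed level of the 10 genes, 5171, 14211 and 17424 TPM, followed B2m, and without it the sum was 1692, 3464 and 2815 TPM, highest in SC monocytes.

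Some of the 8 heavy chain genes examined are close in sequence. Reads of such genes may be split uncertainly, and their single values are less sure than the sum of all 8. The 8 genes summed to 2926, 6844 and 6036 TPM. The ratio of B2m to the sum of these 8 genes was thus 1.19, 1.57 and 2.42 on TPM. In the first comparison 6 of 8 were called higher and none lower, where 13.8% and 10.7% of all genes tested were, with a median of 1.59. The classical gene H2-K1 had a value of 1.80 and was called, while H2-D1, at 0.90, was not. H2-Q4, H2-Q6 and H2-Q7, of the Qa region, had the largest values, 3.08, 4.44 and 4.33. In the second comparison none of 8 was called, with a median of -0.14 on reads and 0.01 per effective length. H2-Q7 had values of -0.64 and 0.36 on these scales, so its direction there depended on the scale. H2-K1 had values of -0.06 and -0.32. Its effective length was longer in SC APCs than in SC monocytes by a log2 ratio of 0.40. The summed level of the 8 genes and the ratio of B2m to it are on TPM and carry such length differences.

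Nlrc5 (ENSMUSG00000074151.13, chromosome 8, 94434356 to 94527272) had the lowest level of the 10 in every library, at 26.6, 109.6 and 46.8 TPM from 1784, 7139 and 4531 reads. It was also the member with the largest difference between monocyte populations, a log2 fold change of 2.48 (2.39 to 2.57), and the lowest value from SC monocytes to SC APCs, -0.81 (-0.88 to -0.75). Per effective length the latter was -1.14 (-1.21 to -1.08) and was called lower. Its effective length was 3362 bases in SC monocytes and 4642 in SC APCs. Between SC APCs and BM monocytes the value was 1.67 on reads and 1.14 per effective length, both called, and 0.79 on TPM, which was not.

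Ciita, the class II transactivator gene, had values above 0 in both comparisons. It stood at 0.779, 29.3 and 48.1 TPM, with log2 fold changes of 5.41 (5.05 to 5.81) and 0.73 (0.65 to 0.82). The TPM ratio of Nlrc5 to Ciita was therefore 34.1 (27.2 to 42.5) in BM monocytes, 3.75 (3.58 to 3.92) in SC monocytes and 0.973 (0.934 to 1.01) in SC APCs, where the interval included 1. The first ratio rests on 80 Ciita reads.

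**Figure D4:**
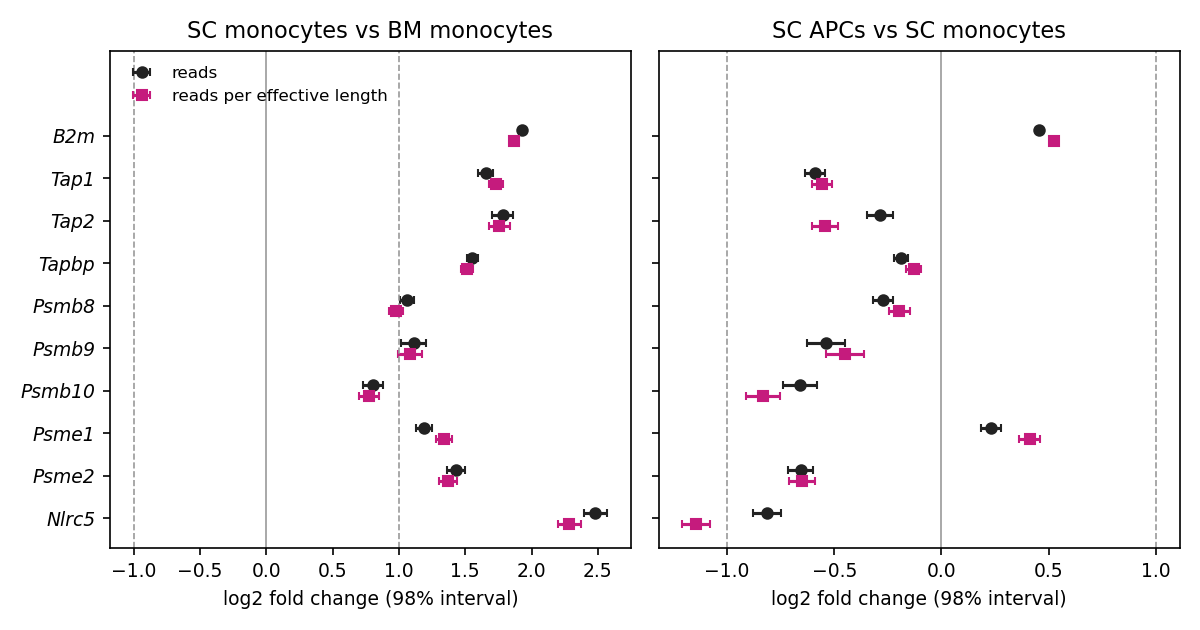
Log2 fold changes with 98% counting intervals for the 10 genes in 2 comparisons, on reads (circles) and on reads per effective length (squares); dashed lines mark 2-fold. Nlrc5 has the largest value on the left and the lowest on the right, and Nlrc5 and Tap2 are the genes with the widest gaps between the scales on the right.

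A list of 13 regulators of the pathway was set beside Nlrc5. In the first comparison 4 were called higher, Ciita among them, and 1 lower, where 13.8% and 10.7% of all genes tested were. Irf1, a transcription factor of the interferon response that is known to act on several of the 10 genes, had a value of 3.01 on the log2 scale, and Jak2 and Stat2 of 1.97 and 1.57. Ifngr1, which encodes the ligand-binding chain of the interferon gamma receptor, was called lower at -1.20, and Ifngr2 and Jak1 were not called (-0.06 and -0.02). Rfx5, Rfxap and Rfxank, subunits of the RFX complex on class I and class II promoters, had values of 0.70, 0.39 and -0.02, none called. From SC monocytes to SC APCs none of the 13 was called on reads, and 9 lay below 0, Irf1 lowest at -0.85. Per effective length Stat2 was called lower, at -1.60 against -0.70 on reads, where 3.29% of all genes were. The effective length of Stat2 was longer in SC APCs than in SC monocytes by a log2 ratio of 1.03.

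Peptidases outside the proteasome that trim or destroy class I peptides in the cytosol or in endosomes had 1 call of 6 in the first comparison, near the 13.8% of all genes called higher. This was Lap3, leucine aminopeptidase, at 2.11. Thop1 had a value of 0.85 and Npepps of 0.42 (1.02 per effective length, not called), and Tpp2, Lnpep and Nrd1 lay between -0.47 and -0.05. In the second comparison none was called on reads. Npepps was called lower per effective length, at -1.09 against -0.26 on reads, where 3.29% of all genes were. The effective length of Npepps was longer in SC APCs than in SC monocytes by a log2 ratio of 0.96.

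**Figure D5:**
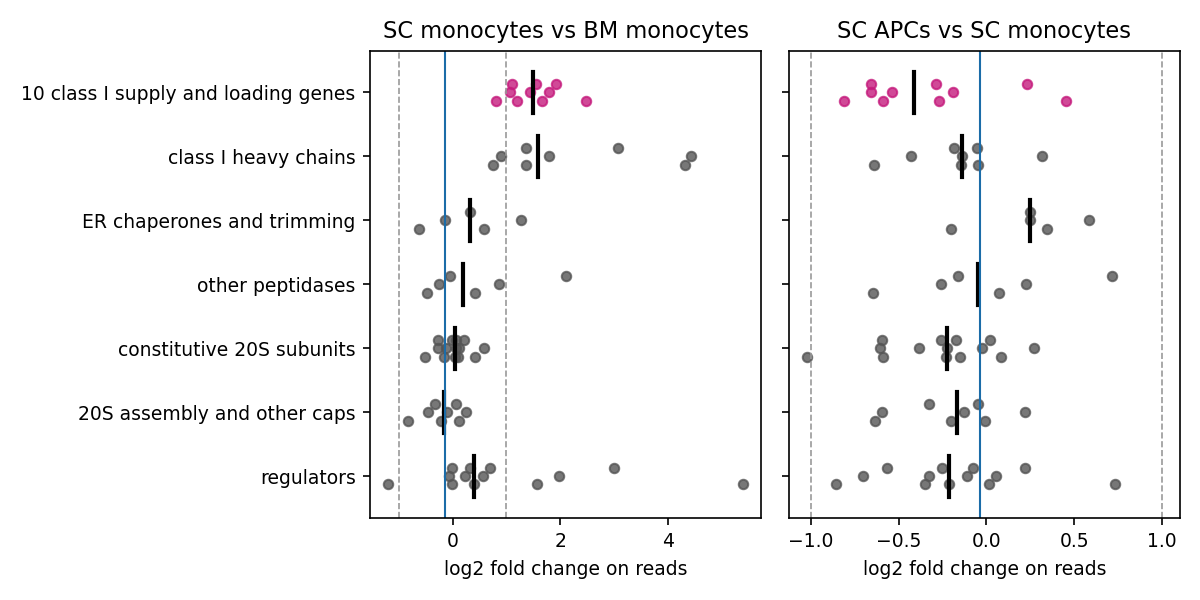
Log2 fold changes on reads for the 10 genes (coloured) and 6 lists of neighbouring pathway genes, 1 point per gene with the list median as a black bar, the median of all genes tested as a blue line and 2-fold as dashed lines. The members and heavy chains sit at medians of 1.49 and 1.59 on the left, while the constitutive 20S subunits sit at 0.05.

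The 5 genes outside these lists whose values in the first and second comparisons lay nearest to the median pair of the members (1.49 and -0.41) were Trp53bp2, Rlf, Vps18, Chd2 and Tcirg1, out of 10209 genes searched. Their Euclidean distances on the log2 scale were 0.014 to 0.058. Trp53bp2, the nearest, stood at 8.75, 19.6 and 15.0 TPM, and Tcirg1, with the highest level of the 5, at 142, 331 and 186 TPM.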

How the data were processed

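RNA of 3 pooled, sorted populations was sequenced by the authors from poly(A) libraries. Per the labels the reads were quantified with Salmon 0.14.1 on mm10, and the study's methods name the GENCODE M22 transcripts. The deposited gene tables hold TPM and estimated counts, with effective lengths that the authors' software assigned; a strand setting is not given in the sources used here. Members and lists were chosen with earlier results of these data known. The genes named were the 10 members, the genes of the fixed pathway and marker lists, and the 5 genes nearest to the members' median pair of fold changes.

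The 22238 genes in all 3 files were kept; they held 84.9%, 85.3% and 100.0% of the deposited TPM of BM monocytes, SC monocytes and SC APCs, which was rescaled to equal sums. Estimated counts were rounded, and libraries were scaled by the median of ratios (1.21, 0.864 and 0.963). Log2 ratios had gamma posteriors (reads plus 1), computed with Python 3.11.15 and scipy 1.17.1, with edgeR 4.0.16 for TMM factors as an alternative. The calls were tested on simulated data with counting error only and planted differences larger than 2-fold. That test did not cover spread between libraries or values close to 2-fold. Wilson intervals at 95% were used for levels, and 3 reads of a member correspond to 0.031 to 0.264 TPM. Coordinates are from GENCODE M21 (GRCm38), in which 99.0% of the identifiers matched with their version. One gene of the regulator list is not reported here. Nardilysin appears under its older symbol Nrd1. No batch label was given, and whether the libraries were made together is not stated. The study describes the 2 spinal cord populations as gates of the same sort, from 18 mice in 3 experiments. The bone marrow pool came from 13 mice in 2 experiments, so tissue and experiment cannot be told apart. Handling also differed by tissue. Per the study, spinal cords were treated with collagenase D and DNase I and passed through a Percoll gradient. Bone marrow was flushed out and enriched for monocytes with a kit. Tissue and handling cannot be told apart either.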

Additional observations from a re-analysis of the deposited data

How the results depend on the processing

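No paired analysis was possible because each group was 1 library and the labels carry no replicate numbers. For the same reason no library could be left out. With an assumed coefficient of variation of 0.2 between libraries, 1 member was called higher in SC monocytes than in BM monocytes (Nlrc5) and 1 in SC APCs than in BM monocytes (B2m), and with 0.4 there were 0 in each, because the intervals widen by construction. On reads per effective length 1 member, Nlrc5, was called lower in SC APCs than in SC monocytes, and the members' median there was -0.50. Scaling by total reads, which shifted all log2 ratios between monocytes by -0.18, gave medians of 1.31 for SC against BM monocytes and 1.08 for SC APCs against BM monocytes, and using all genes of the monocyte files gave 1.25. Ratios of TPM lay lower by construction of the scale, by -0.29 over all genes between monocytes and -0.30 between SC APCs and BM monocytes. The call of Psmb8 between monocytes was lost with total reads (0.88), TMM factors (1.05), effective lengths (0.98), all monocyte genes (0.82) and TPM (0.73), that of Psmb9 with total reads (0.93), effective lengths (1.08), all monocyte genes (0.86) and TPM (0.84), and that of Psme1 with total reads (1.01) and all monocyte genes (0.94). Between SC APCs and BM monocytes Tap1 lost its call with total reads (0.93) and on TPM (0.85), as did Tap2 (0.87) and Nlrc5 (0.79) on TPM. As deposited, the summed TPM was 4392 in BM monocytes and 12121 in SC monocytes. Read ratios of Psmb8 to Psmb5 were 2.92, 7.42 and 9.36 in BM monocytes, SC monocytes and SC APCs, those of Psmb9 to Psmb6 0.887, 1.29 and 0.838, and that of Psmb10 to Psmb7 in SC APCs 1.12. Adding Psme2b to Psme2 was chosen after seeing the data. TPM cut-offs of 4 or none changed no count of members called, and no called value changed sign under any alternative run. Counting error is small at these read numbers, and the spread between animals was not measured.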
